A study of Mus musculus with 24 samples.

Results

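Levels of 10 amino acid transporter genes were followed across 24 arrays of mouse cerebellum RNA. The genes were Slc7a1, Slc7a3, Slc7a5, Slc7a6, Slc7a11, Slc3a2, Slc38a2, Slc1a4, Slc1a5 and Slc6a9, many of them known targets of the stress transcription factor ATF4. They were found by the transcript that the array design gives for each probe, which led to 13 probes for the 10 genes, out of 56605 probes and 22911 gene symbols on the array. All 13 probes were well above background on all 24 arrays, so no gene was left out by the filter on dim probes. Slc7a11, Slc3a2 and Slc7a6 each had 2 probes and the other genes 1.

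Derlins sit in the membrane of the endoplasmic reticulum and help to pull misfolded proteins out of it for degradation. When misfolded proteins build up, or when amino acids run short, kinases phosphorylate the initiation factor eIF2α, general translation falls and translation of ATF4 rises. ATF4 is known to drive genes for amino acid uptake and synthesis, among them the cationic amino acid transporters, the cystine importer and the heavy chain that carries several transporters to the cell surface. Neurons and glia of the cerebellum use such transporters for nutrition, for the cystine that glutathione needs and for clearing transmitters.

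Each array held RNA from one cerebellum sample of C57BL/6 mice at postnatal day 28, and every group had 2 arrays. Controls carried floxed Derlin-1 or floxed Derlin-2 alleles (Derlin-1 flox/flox, Derlin-2 flox/flox). Knockouts (KO) carried the same alleles with Cre recombinase under the nestin promoter, which is active in neural progenitors, so cells of other origin are not expected to lose the gene. Mice received intraperitoneal 4-phenylbutyrate (4PBA, a chemical chaperone and inhibitor of histone deacetylases) at 200 mg/kg, or water as vehicle, daily between day 14 and day 28 after birth. The Derlin-1 line was measured in 2 series: a numbered series (control and KO, vehicle and 4PBA) and a lettered series whose samples are titled a and b (control and KO, with 4PBA or with no injection named in the title, called untreated here). The Derlin-2 line had 1 numbered series of the same 4 groups. Each series filled 1 slide of 8 arrays, and within a slide controls and KO, and 4PBA and no 4PBA, sat at fixed positions, so that slide position and group cannot be told apart. The labels do not say that replicates came from separate animals, so p-values measure the spread between these samples.

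A level below is the log2 processed signal of the gene's brightest probe relative to the 75th percentile of its array, and a change is a difference of such levels. Changes were tested with limma on 16935 genes, and a gene was called at a Benjamini-Hochberg adjusted p under 0.05 over all of them. Between 57.7% and 68.4% of spots were well above background on each array. The labels were checked first. The 2 Derl2 probes separated 3 of the 4 Derlin-2 KO arrays from all Derlin-2 controls, while the Derlin-2 array titled KO vehicle 1 was at control level on both (1.72 and -0.40, against 0.48 and -1.97 on its partner). Derl3, a related gene, was nevertheless higher on that array (-1.85) than on the 4 Derlin-2 controls (-3.03 to -2.75). The Derl1 probe checked nothing, since it did not separate KO from control on most arrays. On the lettered Derlin-1 array titled KO 4PBA b, Derl3 was at -2.27, among the lettered controls (-2.54 to -1.69), and on the other 7 Derlin-1 KO arrays it was at -0.63 to 0.37. This array, called array b below, was doubted from expression alone, with no check of the deletion, so a fit without it selects on the outcome. The results that turn on either array are given with and without it.

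Without 4PBA, 5 of the 10 transporters were called between Derlin-1 KO and control over both series together, 4 higher and 1 lower. Over all genes tested, 10.6% were called, 5.26% higher and 5.37% lower. The cationic amino acid transporters Slc7a3 and Slc7a1, which carry arginine, lysine and ornithine, rose most, by 10.4-fold and 2.37-fold. Slc3a2, the heavy chain that brings light chains such as Slc7a5 and Slc7a11 to the membrane, rose 1.46-fold, and the glutamine transporter Slc1a5 rose 1.61-fold. Slc7a5, a light chain for large neutral amino acids, was 1.56-fold lower. The median change of the 10 members was 0.366 against -0.00643 over all genes tested.

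Slc7a3 stood at -0.19 and -0.47 on the 2 numbered Derlin-1 control vehicle arrays and at 2.98 and 2.72 on the KO vehicle arrays. In the lettered series the untreated controls were at -0.40 and -0.91 and the untreated KO arrays at 2.99 and 2.88. All 4 KO arrays were thus far above all 4 controls, and the change was 3.38 (SE 0.567, 95% interval 2.16 to 4.60, n = 4 and 4, limma adjusted p = 0.00378).

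Slc7a1 stood at 2.51 and 2.34 on the numbered control vehicle arrays and at 3.72 and 3.30 on the KO vehicle arrays. In the lettered series it was at 1.96 and 2.12 in untreated controls and at 3.41 and 3.48 in untreated KO. The groups did not overlap within or across the series, and the change was 1.25 (SE 0.175, 95% interval 0.87 to 1.62, limma adjusted p = 0.00228).

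**Figure D1:**
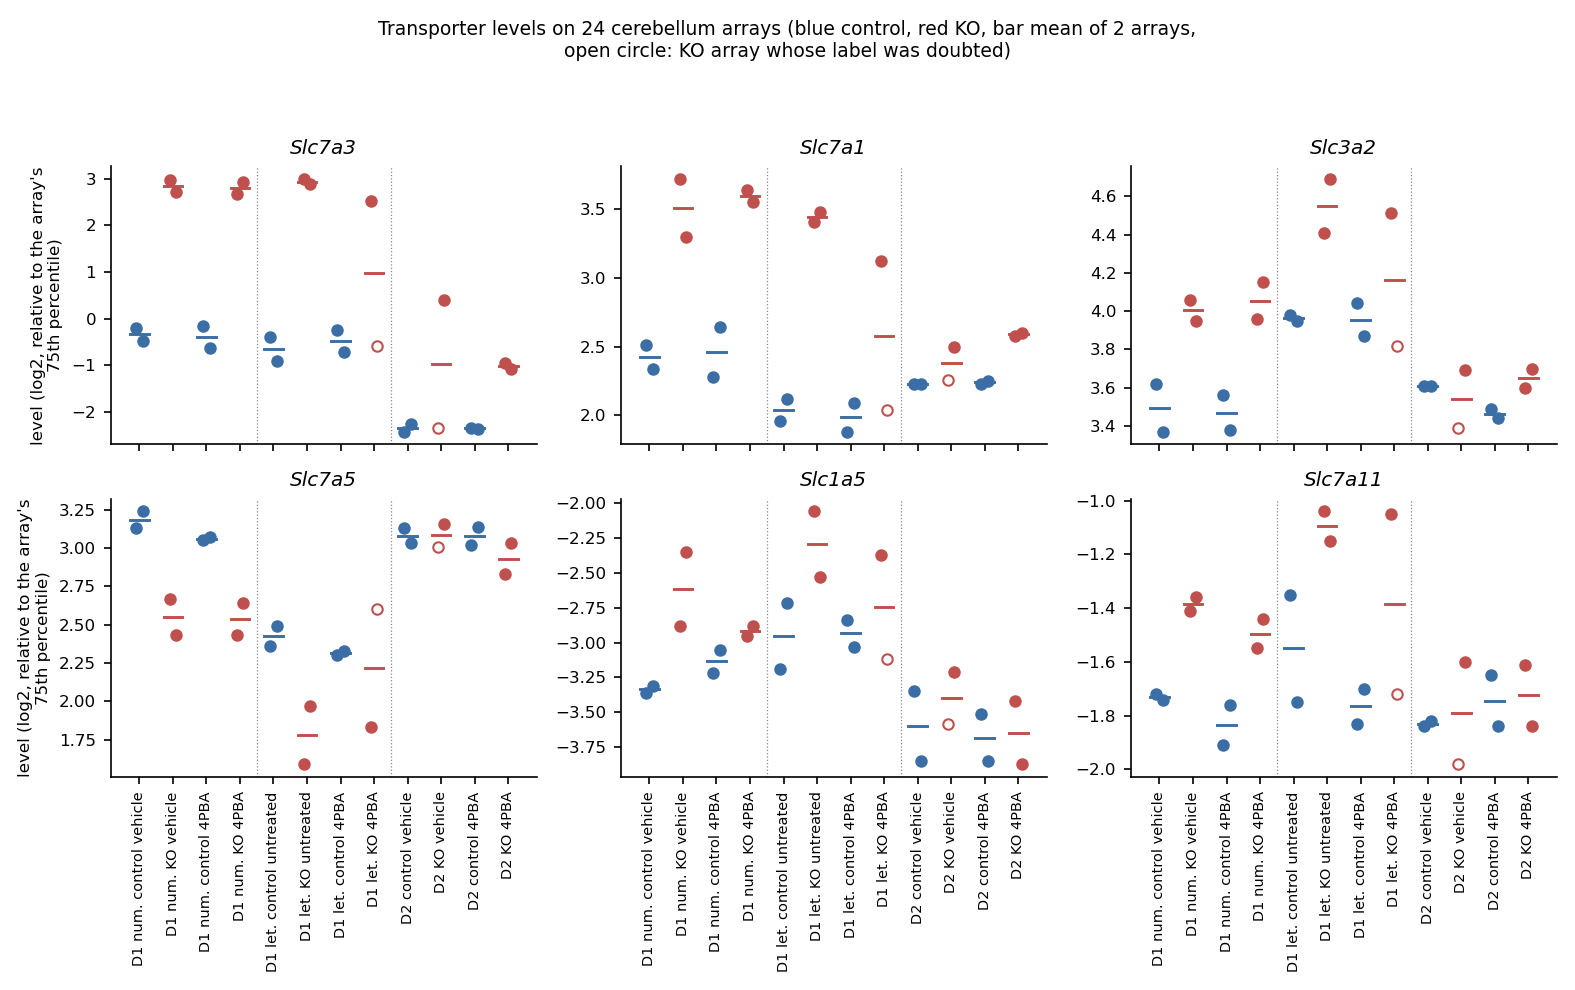
Levels of 6 transporters (log2 relative to the array's 75th percentile, vertical axis) on each of the 24 arrays, by group (horizontal axis; D1 num., D1 let. and D2 are the Derlin-1 numbered, Derlin-1 lettered and Derlin-2 slides). Blue points are control arrays, red points KO arrays, bars the means of 2 arrays, and open circles the KO arrays whose labels were doubted, Derlin-1 lettered 4PBA b (from Derl3) and Derlin-2 vehicle 1 (from Derl2). Slc7a3 lies between 2.53 and 2.99 on all Derlin-1 KO arrays but the open circle, and between -0.91 and -0.15 on the Derlin-1 controls.

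Slc3a2 was measured by 2 probes that differed. Its brighter probe (A_51_P472901) read 3.62 and 3.37 in numbered controls and 4.06 and 3.95 in KO, and 3.98 and 3.95 in lettered controls and 4.41 and 4.69 in KO. KO was higher in each series without overlap, although the numbered KO arrays reached only the level of the lettered controls, and the change was 0.55 (SE 0.128, 95% interval 0.27 to 0.82, limma adjusted p = 0.0165). The other probe (A_55_P2893745), which the array design assigns to another transcript of the gene, changed by -0.09 (SE 0.232, 95% interval -0.59 to 0.41, limma adjusted p = 0.884 over every probe). In that fit over every probe the brighter probe remained called (adjusted p = 0.0299), so the rise of Slc3a2 rests on that probe. The call of the brighter probe ended without numbered control vehicle array 2 (adjusted p = 0.0644), without numbered KO vehicle array 1 (0.0566), and with the Derlin-1 arrays fitted alone (0.0587).

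Of the 3 light chains among the members that pair with Slc3a2, only Slc7a5 was called, and it was lower. Slc7a5 read 3.13 and 3.24 in numbered controls against 2.67 and 2.43 in KO, and 2.36 and 2.49 in lettered controls against 1.59 and 1.97 in KO. The KO arrays were lower in each series, and the change was -0.64 (SE 0.136, 95% interval -0.93 to -0.35, limma adjusted p = 0.0105). Without lettered KO untreated array a it was -0.54 with an adjusted p of 0.0582. Slc7a5 is known as a transporter of the blood-brain barrier. The summed level of the 10 endothelial markers was 34.7 to 36.8 times the array's 75th percentile in numbered controls and 37.0 to 39.7 in KO, and 35.6 to 36.9 and 41.4 to 44.8 in the lettered series, and none of the 10 was called. In bulk tissue, fewer cells of a type and less RNA per cell cannot be told apart.

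Slc7a11, the cystine and glutamate exchanger, was not called by either probe, although with normexp background correction its brighter probe was (0.36, limma adjusted p = 0.0476). It read -1.72 and -1.74 in numbered controls against -1.41 and -1.36 in KO, and -1.35 and -1.75 in lettered controls against -1.04 and -1.15 in KO. Every KO array lay above every control of its own series, with a change of 0.40 (SE 0.133, 95% interval 0.11 to 0.68, limma adjusted p = 0.0704). The dimmer probe (A_52_P368057) changed by 0.59 (SE 0.233, limma adjusted p = 0.163 over every probe). Leaving out the 2 doubted arrays, neither of which is in this comparison, kept the change of 0.40 and brought its adjusted p to 0.0146 through a smaller estimate of the spread, where 11.9% of all genes were called. Slc7a6, which exchanges cationic for neutral amino acids, changed by -0.05 (SE 0.0812, 95% interval -0.22 to 0.13, adjusted p = 0.769), and its other probe by -0.09 (adjusted p = 0.722).

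Among the 10 members, Slc1a5, Slc1a4 and Slc38a2 carry neutral amino acids with sodium, and Slc1a5 was the 1 called of the 3. It read -3.36 and -3.31 in numbered controls against -2.88 and -2.35 in KO, and -3.19 and -2.72 in lettered controls against -2.06 and -2.53 in KO. Its change was 0.69 (SE 0.196, 95% interval 0.27 to 1.11, limma adjusted p = 0.038), and this call was the least stable: leaving out any of 5 of the 8 arrays ended it, with adjusted p from 0.085 to 0.162, as did the fit over every probe (adjusted p = 0.0607). Slc1a4, which exchanges serine, alanine and other neutral amino acids, changed by 0.33 (SE 0.288, adjusted p = 0.498), and Slc38a2, which imports small neutral amino acids, by 0.30 (SE 0.153, adjusted p = 0.223). Slc6a9, the glycine transporter, was at 5.02 to 5.22 in the 4 controls and 5.11 to 5.35 in the 4 KO arrays, groups that overlap, with a change of 0.07 (SE 0.0959, 95% interval -0.14 to 0.28).

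The core letters of the element through which ATF4 acts with C/EBP partners, TGATGNAA on either strand, were looked for in RefSeq promoters (mouse build GRCm38.p6, 250 bases before to 50 after each start). Promoters of 7 members were in the table, 11 in all; Slc7a3, Slc7a5 and Slc1a5 had no entry. The letters were in 2 of the 11 promoters (18.2%), those of Slc7a11 and Slc1a4, in 7 of 31 promoters of the other ATF4 pathway genes (22.6%), in 2 of 41 promoters of the other amino acid transporters (4.88%), and in 1304 of all 32851 promoters (3.97%). Shown are both member promoters and those of Chac1 and Atf3, 2 other ATF4 pathway genes that were called higher (values below), with the matching letters in capitals, 5′ to 3′ along the gene.
Slc7a11: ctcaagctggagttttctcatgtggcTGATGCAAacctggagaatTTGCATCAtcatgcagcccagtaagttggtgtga
Slc1a4: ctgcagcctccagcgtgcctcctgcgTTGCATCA
Chac1: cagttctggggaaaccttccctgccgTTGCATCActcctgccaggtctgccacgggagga
Atf3: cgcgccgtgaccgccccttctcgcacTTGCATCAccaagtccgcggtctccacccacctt

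The Slc7a11 stretch (chr3:50443627-50443705, minus strand) held the letters on both strands, from 66 to 59 and from 47 to 40 bases before the start. In the Slc1a4 stretch (chr11:20332710-20332743, gene on the minus strand) the match ran 4 bases past the start. The Chac1 stretch (chr2:119351023-119351082, gene on the plus strand) held its match 193 to 186 bases before the start. The Atf3 stretch (chr1:191183410-191183469, gene on the minus strand) held its match 110 to 103 bases before. In both, the letters TGATGNAA read along the strand opposite to the gene. Of the called members, only Slc7a1 and Slc3a2 had promoters in the table, and their windows held no match. Slc7a11 and Slc1a4, which held a match, were not called. Slc7a3, Slc7a5 and Slc1a5 were called but could not be searched, so whether matches go with changes was not tested. The longer endoplasmic reticulum stress element (ERSE), known from genes of the unfolded protein response, was in no member promoter and in 0.119% of all. A match is a description of letters in this window and not of a bound site.

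KO lay above control without overlap in both series separately for 7 members: Slc7a1, Slc7a3, Slc7a11, Slc3a2, Slc38a2, Slc1a4 and Slc1a5. Of all genes with a value on each array, 11.5% did so. Slc7a5 lay below without overlap in both, as did 12.4% of all genes. For Slc38a2 and Slc1a4 the margin in the numbered series was small, with the higher control at 2.62 and the lower KO array at 2.63 for Slc38a2, and at 0.19 and 0.20 for Slc1a4. Fitted alone, with the spread still estimated from all 24 arrays, the lettered series called Slc7a1 (1.41, limma adjusted p = 0.0187) and Slc7a3 (3.58, adjusted p = 0.0319), where 3.54% of all genes were called. The numbered series called none of the 10 in limma and 0.0118% of all genes, though 5 members had an unadjusted p under 0.05. Slc7a1 changed there by 1.08 (adjusted p = 0.0937) and Slc7a3 by 3.18 (adjusted p = 0.112). The difference between the series was called for none of the 10 in limma, none had an unadjusted p under 0.05 (smallest adjusted p = 0.978), and 0.0059% of all genes were called.

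**Figure D2:**
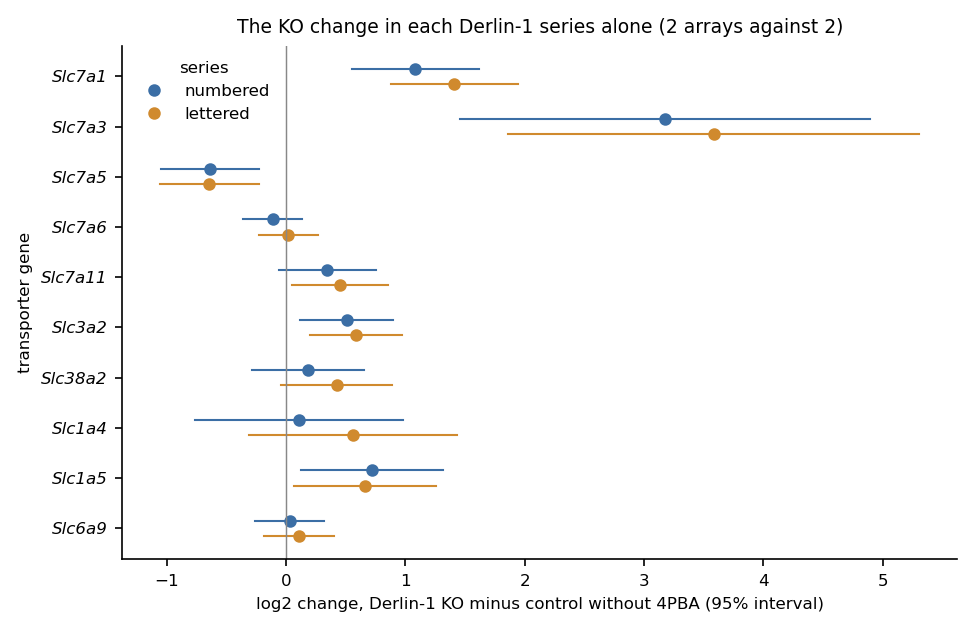
Change in level (log2, KO minus control without 4PBA, horizontal axis) of each of the 10 transporters in the numbered (blue) and the lettered (orange) Derlin-1 series, 2 KO arrays against 2 controls each, with 95% intervals. Points of the 2 series lie close for Slc7a5 (-0.63 and -0.64) and Slc3a2 (0.51 and 0.59), and all intervals of a gene overlap.

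The transporters were set beside other genes of the ATF4 pathway and other amino acid transporters, in lists drawn up with earlier results of these data known. In this comparison, without 4PBA, 10.6% of all genes were called, 5.26% higher and 5.37% lower. Of 28 measured pathway genes that are not transporters, 19 were called higher and none lower, with a median change of 0.741. The largest changes were those of Trib3, a pseudokinase that ATF4 induces (3.32, limma adjusted p = 0.00203), Eif4ebp1, a repressor of translation initiation (2.28), and the transcription factor Atf3 (2.25). Chac1, which degrades glutathione (2.19), and the transcription factors Cebpb (1.63) and Ddit3 (1.55) followed. Of 41 other amino acid transporters, 31 passed the filter, and 4 were called higher and 1 lower, with a median of 0.0759. These were Slc38a11 (0.66), Slc7a7 (0.64), Slc38a7 (0.25) and Slc38a1 (0.24), and Slc7a4, which was lower (-0.34). The list of 11 genes of glutathione and cystine use also held other antioxidant genes, among them the heme oxygenase Hmox1. In this list Hmox1 was called higher (0.75) and Ggt7 lower (-0.30).

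Markers of other cell types moved in the same comparison, where 10.6% of all genes were called, 5.26% higher and 5.37% lower. Of 10 microglia markers, 8 were called higher, and their summed level was 16.6 to 17.7 times the array's 75th percentile in numbered controls and 33.9 to 34.1 in KO. In the lettered series it was 15.5 to 20.2 and 32.6 to 37.5. Of 8 granule neuron markers, 4 (Gabra6, Neurod1, Grin2c and Zic1) were called lower, and the summed level was 442 to 450 in numbered controls and 342 to 344 in KO, and 335 to 345 and 267 to 271 in the lettered series. Gfap was the 1 called astrocyte marker of 9 (1.25), and no choroid plexus, oligodendrocyte or Purkinje cell marker was called. All markers of these lists were well above background on all 24 arrays, so none stood at 0. Their part in the transporter changes was not tested.

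**Figure D3:**
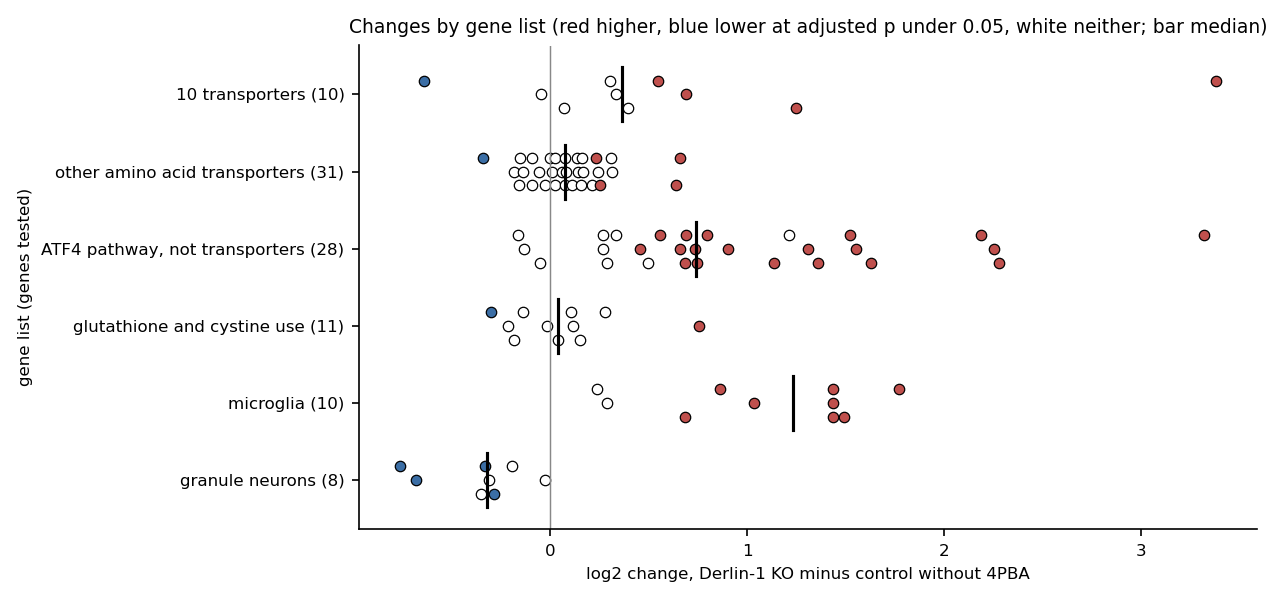
Change in level (log2, Derlin-1 KO minus control without 4PBA, horizontal axis) of every measured gene in 6 lists (vertical axis, number of genes in brackets). Red points were called higher, blue lower and white neither, and the black bar is the median of the list, 0.366 for the 10 transporters and 0.741 for the ATF4 pathway.

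The genes whose levels ran closest to the 2 most changed transporters were found over all 24 arrays, after each gene was centred on its slide. Of 16342 genes with a value on every array, those with the smallest root mean square difference from Slc7a1 were Herpud1 (0.136), Arhgef2 (0.151) and Atf5 (0.153), beside a spread of 0.509 in Slc7a1 itself. For Slc7a3, whose own spread was 1.44, they were Cox6a2 (0.428), Trib3 (0.467) and 9330179D12Rik (0.522). The measure favours genes with changes of a similar size: Cox6a2 changed by 3.72 and Herpud1 by 1.33 in the comparison without 4PBA. Genes on the same arrays share their samples, so these distances are a description.

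With 4PBA, none of the 10 transporters was called between Derlin-1 KO and control when all arrays were used, and 0.0472% of all genes were. Of the 10, 5 had an unadjusted p under 0.05 in limma: Slc7a1, Slc7a3, Slc7a5, Slc7a11 and Slc3a2. On 3 of the 4 KO arrays with 4PBA these genes stood near the levels seen without it, and on array b they did not. There Slc7a1, Slc7a3 and Slc7a11 lay within the range of the 4 lettered controls, while Slc7a5 (2.60) was above the 4 lettered controls (2.30 to 2.49) and Slc3a2 (3.82) below them (3.87 to 4.04), both on the far side from the other lettered KO arrays.

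Slc7a3 was at 2.68 and 2.93 on the numbered KO 4PBA arrays and at 2.53 on lettered array a, against -0.58 on array b and -0.72 to -0.15 in the 4 controls with 4PBA. Slc7a1 was at 3.64, 3.55 and 3.12, against 2.04 on array b and 1.88 to 2.64 in those controls. Array b lay inside the control range for both. With all arrays the change of Slc7a3 was 2.32 (SE 0.567, 95% interval 1.11 to 3.54, limma adjusted p = 0.129) and that of Slc7a1 was 0.86 (SE 0.175, adjusted p = 0.0909).

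Without array b, 4 transporters were called higher and 1 lower, where 6.18% of all genes were called, 3.51% higher and 2.67% lower. Slc7a3 changed by 3.10 (SE 0.45, limma adjusted p = 0.00129), Slc7a1 by 1.13 (SE 0.115, adjusted p = 0.000105), Slc3a2 by 0.57 (adjusted p = 0.00528), Slc7a11 by 0.53 (adjusted p = 0.0156) and Slc7a5 by -0.50 (adjusted p = 0.0109). With the Derlin-2 array KO vehicle 1 left out too, 5 were again called, among 5.86% of all genes. Since array b was doubted from expression, from the level of Derl3 on these same arrays, the calls without it are no independent support. The microglia markers' summed level on array b was 15.4, against 32.9 on array a and 28.6 to 33.9 on the numbered KO 4PBA arrays. In the numbered series alone, which array b does not touch, the changes with 4PBA were 3.19 for Slc7a3 and 1.13 for Slc7a1, and none of the 10 was called in limma (4 had an unadjusted p under 0.05), where 0.0472% of all genes were called. In the lettered series alone, with array b as 1 of its 2 KO arrays, they were 1.45 and 0.59 (adjusted p = 0.998 for both). None of the 10 was called there in limma, 1 had an unadjusted p under 0.05, and 0.0236% of all genes were called.

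**Figure D4:**
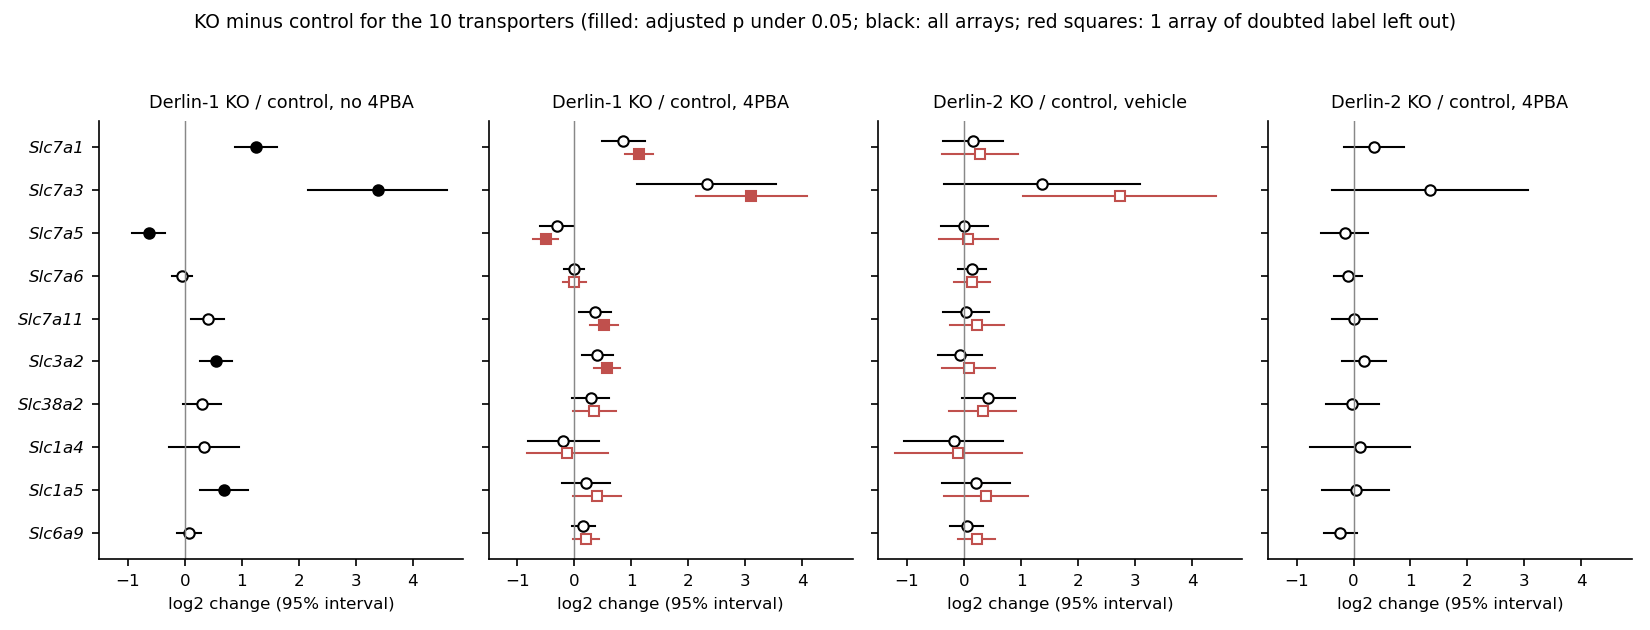
Change in level (log2, KO minus control, horizontal axis) of the 10 transporters in 4 comparisons, with 95% intervals. Black circles use all arrays, red squares leave out Derlin-1 array b or the Derlin-2 array KO vehicle 1, and filled symbols were called; with 4PBA, 5 transporters were called in Derlin-1 KO without array b and none with it.

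The Derlin-1 KO effect with 4PBA did not differ detectably from that without it. None of the 10 was called for the difference in limma (0.0118% of all genes were), none had an unadjusted p under 0.05, and the smallest adjusted p was 0.999. For Slc7a3 the difference was -1.06 (95% interval -2.78 to 0.66) with all arrays and -0.28 (95% interval -1.59 to 1.02) without array b. For Slc7a1 it was -0.39 (95% interval -0.92 to 0.14) and -0.12 (95% interval -0.45 to 0.22). Within the series the difference was 0.02 for Slc7a3 and 0.05 for Slc7a1 in the numbered arrays. In the lettered arrays, array b included, it was -2.13 (95% interval -4.56 to 0.30) for Slc7a3 and -0.82 (95% interval -1.57 to -0.07) for Slc7a1, which alone had an unadjusted p under 0.05, and neither was called (limma adjusted p = 1 for both).

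Within one genotype, 4PBA was set against no 4PBA. In the lettered series the samples without 4PBA had no injection named, so 4PBA and daily injection cannot be told apart there. In Derlin-1 controls none of the 10 was called in limma and none had an unadjusted p under 0.05, with 0.0295% of all genes called. In Derlin-1 KO none was called either (0.0354% of all genes), and Slc7a1 alone had an unadjusted p under 0.05, with a change of -0.39 (95% interval -0.77 to -0.02, adjusted p = 0.734). Numbered arrays alone gave 0.08 and lettered arrays alone -0.87 (adjusted p = 0.45), neither called. Without array b the change over both series was -0.12 (95% interval -0.37 to 0.12), and 0.0591% of all genes were called. Without its partner array a it was -0.67 (adjusted p = 0.0133), in a fit that called 1.14% of all genes and in which array b was the only lettered KO array with 4PBA.

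Slc1a4 had 1 array far from the rest. It read 2.09 on control 4PBA array 2 of the numbered Derlin-1 series and 0.04 on its partner, against -0.73 to 0.50 on the other 22 arrays. With both arrays the change with 4PBA in Derlin-1 controls was 0.53 (SE 0.288, limma adjusted p = 1). Without the partner it was 1.05 (adjusted p = 0.00102, with 0.136% of all genes called), a value that rests on the single high array, and without the high array it was 0.02. In the fit without the partner, Slc1a4 was also called lower in Derlin-1 KO than control with 4PBA (-0.70, adjusted p = 0.021, again with 0.136% of all genes called), and without the high array this change was 0.32 (adjusted p = 0.219). In that same fit without the partner, the difference of the KO effect with and without 4PBA was called too (-1.04, adjusted p = 0.0151, with 0.0355% of all genes called), and without the high array it was -0.01. On that array the choroid plexus markers summed to 18.3 times the 75th percentile, and on the partner to 199; this sum ran from 4.6 to 249 over the 24 arrays, and its part in the transporter levels was not tested.

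**Figure D5:**
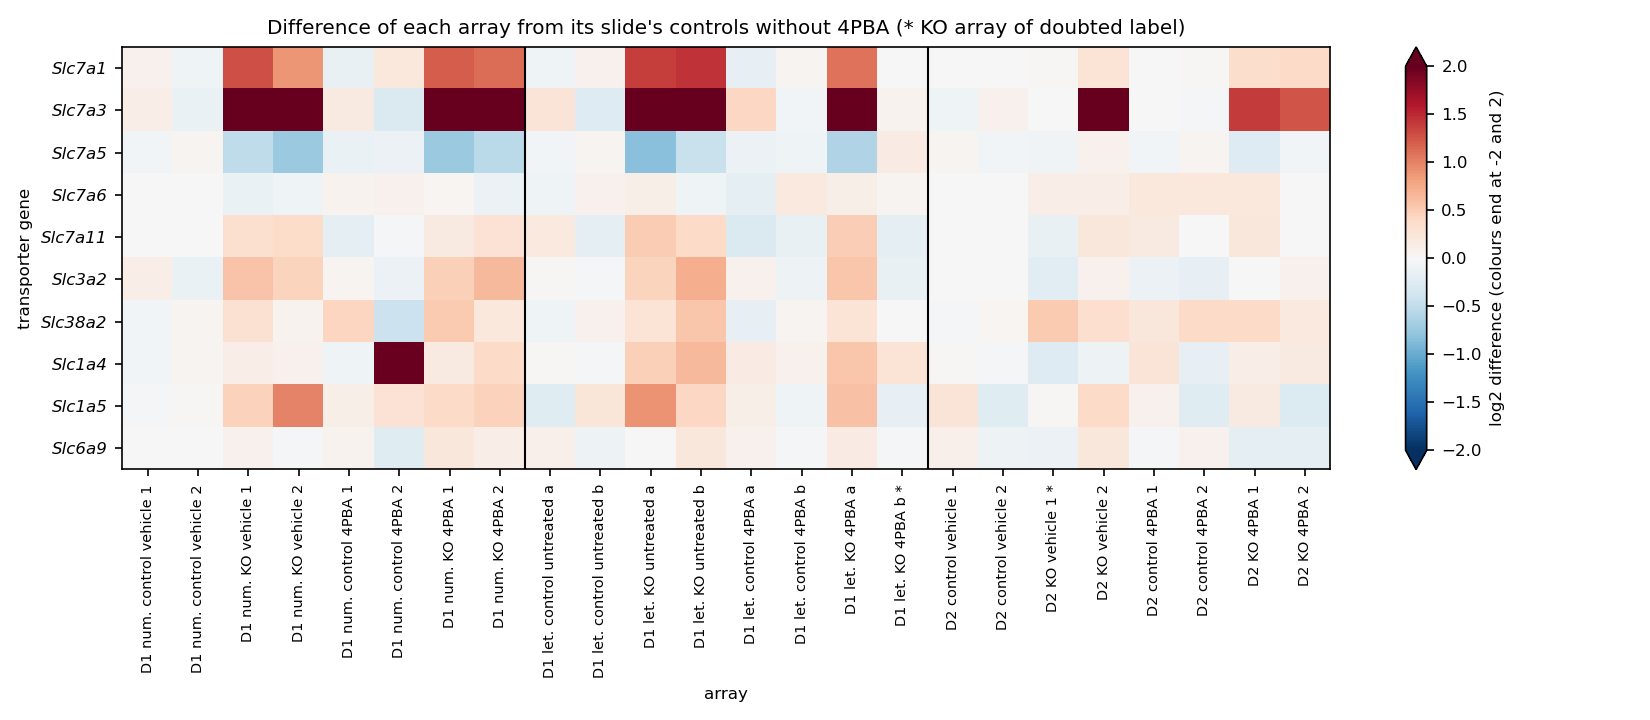
Difference in level (log2, colour) of each transporter (rows) on each array (columns) from the mean of the 2 controls without 4PBA on the same slide; colours end at -2 and 2, and asterisks mark the KO arrays whose labels were doubted. Slc7a3 and Slc7a1 are red on 7 of the 8 Derlin-1 KO arrays, and Slc1a4 stands out on 1 Derlin-1 control array.

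In the Derlin-2 line, no transporter was called between KO and control with vehicle (0.118% of all genes were) or with 4PBA (0.136%), and none had an unadjusted p under 0.05 in limma in either. Slc7a3 had the largest change in both. It read -2.42 and -2.25 in vehicle controls, -2.33 on the array titled KO vehicle 1 and 0.40 on KO vehicle 2, and -2.34 and -2.36 in controls with 4PBA against -0.94 and -1.08 in KO with 4PBA. KO vehicle 1, the KO array on which Derl2 was at control level, was thus among the controls. How many other genes separate the remaining KO arrays from the controls was not counted. With all arrays the changes were 1.37 with vehicle (SE 0.802, limma adjusted p = 0.719) and 1.35 with 4PBA (SE 0.802, adjusted p = 1).

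Without KO vehicle 1 the vehicle change of Slc7a3 was 2.73 (SE 0.783, 95% interval 1.04 to 4.42, adjusted p = 0.19), where 0.487% of all genes were called. Without KO vehicle 2 instead, its change was 0.00 (95% interval -1.69 to 1.69), where 0.118% were called. With array b of the Derlin-1 series left out as well, which lowers the estimated spread, its SE was 0.256 and it was called (adjusted p = 0.000879, where 0.552% of all genes were called). In that fit Slc7a3 was also called with 4PBA (1.35, adjusted p = 0.0256, 0.148% of all genes) and between 4PBA and vehicle in Derlin-2 KO (-1.41, adjusted p = 0.0306, 0.541% of all genes). The last value sets 2 arrays against the single remaining KO vehicle array, which is assumed to vary like the other groups. Without KO vehicle 2 instead, the change between 4PBA and vehicle was 1.33 (0.213% of all genes were called) in place of -0.04 with all arrays, so its sign rests on which vehicle array is kept.

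Slc7a1 followed at a smaller size. It was at 2.23 to 2.25 in the 4 Derlin-2 controls, at 2.26 on KO vehicle 1, and at 2.50, 2.58 and 2.60 on the other KO arrays. Its change was 0.15 with vehicle (95% interval -0.38 to 0.68) and 0.36 with 4PBA (95% interval -0.17 to 0.89), neither of them called. The vehicle change was 0.27 (95% interval -0.39 to 0.94) without KO vehicle 1 and 0.03 without KO vehicle 2. For the other 8 members the changes ran from -0.18 to 0.43 with vehicle (-0.10 to 0.39 without KO vehicle 1) and from -0.24 to 0.18 with 4PBA, and none of the 28 ATF4 pathway genes was called in either. The microglia markers' summed level lay between 14.7 and 18 on all Derlin-2 arrays. With 4PBA the choroid plexus sum was 166 to 223 in Derlin-2 KO and 34.8 to 85.6 in controls. The Purkinje cell sum was 605 to 653 and 679 to 691, and the endothelial sum 27.6 to 27.8 and 29.0 to 29.9. With vehicle the ranges of these sums overlapped. No marker of any cell type list was called in either Derlin-2 comparison, and their part in the transporter levels was not tested. Between 4PBA and vehicle, none of the 10 was called in limma in Derlin-2 controls (0.13% of all genes) or KO (0.136%) with all arrays, and none had an unadjusted p under 0.05.

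The KO effect without 4PBA was compared between the lines. None of the 10 was called for the difference with all arrays, where 0.065% of all genes were, and 3 had an unadjusted p under 0.05 in limma. Slc7a1 rose by 1.09 more in Derlin-1 KO than in Derlin-2 KO (95% interval 0.44 to 1.74, adjusted p = 0.153), Slc3a2 by 0.62 more (95% interval 0.14 to 1.09, adjusted p = 0.231), and Slc7a5 differed by -0.64 (95% interval -1.14 to -0.14, adjusted p = 0.237). With both doubted arrays left out, the difference in Slc7a1 was 0.97 and was called (adjusted p = 0.0352), among 1.66% of all genes. For Slc7a3 the difference was 2.01 (95% interval -0.09 to 4.12), and 0.65 (95% interval -1.31 to 2.60) without the Derlin-2 array KO vehicle 1, a fit that called 0.422% of all genes and none of the 10. Without KO vehicle 2 instead it was 3.38 (95% interval 1.43 to 5.33, adjusted p = 0.364). Without KO vehicle 1 the difference was 0.47 for Slc3a2 (95% interval -0.08 to 1.01) and -0.71 for Slc7a5 (95% interval -1.31 to -0.11).

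The level of Slc7a3 in controls also differed between slides. On the Derlin-2 slide the 4 controls read -2.42 to -2.25, below all 8 Derlin-1 control arrays, which read -0.62 to -0.15 on the numbered slide and -0.91 to -0.24 on the lettered slide. Slc1a4 controls were lower on the lettered slide (-0.73 to -0.53) than on the Derlin-2 slide (-0.02 to 0.39), and Slc38a2 controls were higher on the lettered slide (3.14 to 3.39) than on the Derlin-2 slide (2.60 to 3.04). Slc7a5 controls were lower on the lettered slide (2.30 to 2.49) than on the numbered (3.05 to 3.24) and Derlin-2 slides (3.02 to 3.14). Slc7a1 controls were lower there too (1.88 to 2.12, against 2.28 to 2.64 and 2.23 to 2.25). Slc3a2 controls were higher there (3.87 to 4.04, against 3.37 to 3.62 and 3.44 to 3.61). Slc1a5 controls were higher there (-3.19 to -2.72) than on the Derlin-2 slide (-3.85 to -3.35). Slc6a9 (4.95 to 5.30), Slc7a6 (-0.85 to -0.47) and Slc7a11 (-1.91 to -1.35) had control ranges that overlapped on all 3 slides. Each slide held 1 series, so line, series and slide cannot be told apart in these levels, and the KO effects compared between lines or between series share that limit.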

How the data were processed

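Cerebellum RNA was labelled with Cy3 and hybridised to 24 single-colour Agilent arrays. The deposited intensities are processed signals of Agilent Feature Extraction 10.7.1.1, per the submitters' processing notes. The file headers also list background-subtracted signals and a spatial detrend fit; how these enter the processed signal is not given in the sources used here. For probes with 1 spot the deposited series table held the same values (largest log2 difference 1.74e-06). Control spots and outlier-flagged spots were left out, log2 signals were set relative to each array's 75th percentile, and a probe was kept if well above background on both arrays of any group, which left 38115 probes. Symbols came from RefSeq transcript accessions (32994 of 56605 probes matched), and the brightest probe stood for a gene. limma 3.58.1 (R 4.3.3) fitted the 12 group means over all 24 arrays, with 12 residual degrees of freedom; every adjusted p is limma's, Benjamini-Hochberg adjusted over all genes tested. Intervals are 95% and rest on the number of arrays. Fits of 1 series or without an array kept the spread of all remaining arrays. Alternatives were other scalings, filters and probe rules, a replicate block, series alone and each array left out. The files used here held median, not mean, spot signals, so the normexp alternative used those. The steps were tested on simulated data.

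The members and lists were chosen with earlier results of these data known. All members and probes are named; of other lists, genes called between Derlin-1 KO and control without 4PBA, at most 6 a list by size, and, for members called at 2-fold or more, the 3 genes nearest over the 24 arrays. Of the 41 other transporters, 10 did not pass the filter, and the ATF4 pathway gene Pycr1 was not matched to a probe.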

Additional observations from a re-analysis of the deposited data

How the results depend on the processing

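The count of 5 transporters called between Derlin-1 KO and control without 4PBA was 6 with normexp background (Slc7a11 was gained), 5 with quantile or median scaling, with the stricter filter or from the series table, and 4 with no filter or over every probe. With the arrays of that line fitted alone it was 3, in the numbered series 0 and in the lettered series 2, and leaving out 1 array gave 3 to 5. Across settings Slc7a1 changed by 1.08 to 1.41, Slc7a3 by 3.18 to 3.58, Slc7a5 by -0.73 to -0.54, Slc3a2 by 0.48 to 0.64 and Slc1a5 by 0.46 to 0.82. With both doubted arrays left out, 5 transporters were called in Derlin-1 KO with 4PBA (0 to 5 leaving out 1 array), and 1 each in Derlin-2 KO with vehicle, with 4PBA, between 4PBA and vehicle in Derlin-2 KO, and between the lines. Leaving out 1 array gave 0 to 1 for 4PBA in Derlin-1 controls, 4PBA in Derlin-1 KO, and the 4PBA difference in KO effect. Of 2030 recomputed member changes, 20 lost and 20 gained a call, and no change called with all arrays turned its sign. The number of genes called over all 16935 ran from 2 to 2788 without 4PBA in Derlin-1, beside 1800 as reported, and from 0 to 1047 with 4PBA, beside 8. Same-numbered or same-lettered arrays were not taken as pairs, since the labels name no shared source and not all correlations of their deviations were over 0.1 (-0.16 to 0.41). They were over 0.1 in 3 of 6 group pairs of the numbered Derlin-1 slide, 0 of 6 of the Derlin-2 slide and 5 of 6 of the lettered slide. With the replicate block 5 transporters were called, as without it. With 2 arrays a group, small changes are not detectable. The causes were not tested.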
